A study of Mus musculus with 12 samples.

Results

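The IL-12 family, IL-6, IL-10 and TNF are the cytokines by which macrophages direct and restrain inflammation. Their genes were chosen by name, with earlier results of these data known, as Il12a, Il12b, Il23a, Il27, Ebi3, Il6, Il10 and Tnf. All 8 had 1 row each among the 22294 genes of the deposited table. Their transcripts were measured in 12 RNA sequencing libraries of cells pulled from mouse endometrium with magnetic beads against F4/80, a surface protein of macrophages. In 3 libraries the mice carried a model of intrauterine adhesion (IUA, scarring that closes the cavity of the uterus) and were given mesenchymal stromal cells (MSC) of human umbilical cord primed with inflammatory cytokines (primed MSC). In 3 they carried the model and were given control MSC, in 3 they carried the model alone (IUA), and in 3 they had a sham operation (Sham). The model is thus shared by the primed MSC, control MSC and IUA groups. The IUA libraries are titled Matrigel, and whether the mice of the other groups received Matrigel is not stated. Strain, age, the interval to sampling, the priming cytokines and whether a library came from 1 mouse or a pool are not given in the sources used here, so a p-value here refers to the spread among such libraries, which may be technical in part.

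Cytokines of the IL-12 family are pairs of chains. The p40 chain, encoded by Il12b, pairs with p35 (Il12a) to form IL-12, which drives interferon-gamma from T and NK cells, and with p19 (Il23a) to form IL-23, which sustains IL-17-producing T cells. The Ebi3 chain pairs with p28 (Il27) to form IL-27 and with p35 to form IL-35, and both are known to restrain T cells. IL-6 signals through gp130 and STAT3 in the acute phase of inflammation, TNF through its receptors to NF-kB, and IL-10 through STAT3 to shut inflammatory genes down in macrophages. The transcripts of a complex of chains can change separately, so a transcript alone does not give the amount of a secreted cytokine.

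Transcription and decay of these genes are written in part into short sequences, of which the Il6 promoter and the 3' ends of 5 members are shown because they carry the letters best known for this family. The promoter of Il6 on the forward strand of the mouse build GRCm38.p6, chr5:30012864-30013163, from 250 bases before to 50 bases after the transcript start as annotated by RefSeq, reads as follows, with capitals for the matched letters.
Il6 promoter: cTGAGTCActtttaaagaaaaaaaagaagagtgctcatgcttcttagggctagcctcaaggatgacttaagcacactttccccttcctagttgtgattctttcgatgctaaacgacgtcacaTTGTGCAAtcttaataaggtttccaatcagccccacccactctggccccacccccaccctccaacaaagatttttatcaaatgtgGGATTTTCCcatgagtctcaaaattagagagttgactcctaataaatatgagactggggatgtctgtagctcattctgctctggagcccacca
From the 5' end the capitals are a match to AP-1 (letters TGANTCA), one to C/EBP (letters TTNNGCAA) and one to NF-kB (letters GGANTTTCC), each searched on both strands. Counted from the start site, the matches begin at -249, -128 and -43. The AP-1 letters read the same on both strands, so that site counts once. Among 32851 RefSeq promoters of the same length, 7.8% held the AP-1 letters, 10.8% the C/EBP letters and 1.3% the NF-kB letters. The table held promoters for 5 of the 8 members. The second start of Il12a held the NF-kB letters on the opposite strand 18 bases after the start site, and the promoters of Il12b, Ebi3 and Tnf held none of these letters in this window.

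The 3' untranslated regions of cytokine transcripts often hold AU-rich elements, runs of ATTTA to which decay proteins such as tristetraprolin bind. The 30 bases of each annotated region (GENCODE vM21, the longest region of the gene) that held the most ATTTA are shown for 4 members rich in them and for Ebi3, with ATTTA in capitals.
Tnf: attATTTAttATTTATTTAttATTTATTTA
Il12a: gcctATTTAtATTTATTTAttttctATTTA
Il12b: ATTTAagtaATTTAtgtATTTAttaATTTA
Il27: ccagatATTTAtttcttggatATTTATTTA
Ebi3: ggtgcggggctttgtgaactttgtgATTTA
Tnf held 8 ATTTA pentamers and 8 of the longer TATTTAT in a region of 764 bases. Il6 held 10 pentamers in 1668 bases, and Il12a, Il12b, Il23a and Il10 held 6 each. Il27 held 5 in 285 bases, while Ebi3 held 1 in 245 bases and no TATTTAT. The density was 8.54 pentamers per kilobase over the 8 members, against 1.85 over 11510 tested genes with such a region. At least 1 TATTTAT was present in 7 of 8 members and in 3454 of those genes. These counts describe letters and were set against no measurement of decay.

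Expression is given as FPKM (fragments per kilobase, relative to the total mapped in a library), a unit per length in which levels of different genes may be set side by side. All 8 members passed the filter of at least 1 FPKM in at least 3 libraries, as did 11604 genes in all. Changes are differences of log2(FPKM + 1) with their standard error (SE), tested with limma over all 12 libraries, and a gene is said to rise or fall where p, adjusted by Benjamini-Hochberg over the 11604 genes, is under 0.05. Adding 1 makes the changes of genes at a few FPKM smaller than the ratio of their FPKM. Over the 11604 genes the median log2 change was -0.30, -0.33 and -0.35 for control MSC, primed MSC and IUA against Sham, and between -0.03 and 0.02 in the comparisons without Sham. Scaling the libraries by median ratios brought the first 3 to between -0.01 and 0.03.

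Markers of the sorted cells set the Sham libraries apart. The summed FPKM of 10 macrophage markers was 29638 to 31236 in primed MSC, 30000 to 32943 in control MSC, 28012 to 30403 in IUA and 10135 to 12717 in Sham libraries. In IUA against Sham 9 of the 10 rose, where 11.1% of all tested genes were called higher and 45.0% lower. Of 11 tested markers of uterine epithelium 10 fell in the same comparison, and their list summed to 1769 to 3500 in primed MSC, 2066 to 4788 in control MSC, 1798 to 5604 in IUA and 7896 to 13804 in Sham libraries. Neutrophil markers, of which 6 of 9 tested rose, summed to 360 to 1404, 688 to 1112, 337 to 454 and 59.0 to 102 in the same order, with Ly6g at 0 in all Sham libraries. Ltf, lactoferrin, is on both the neutrophil and the epithelium list, and it was the 1 gene of the epithelium list that rose (2.56 in IUA against Sham). Its FPKM was 239 to 1166 in primed MSC, 481 to 995 in control MSC, 242 to 307 in IUA and 23.6 to 76.0 in Sham libraries. Without Ltf the neutrophil list summed to 116 to 238 in primed MSC, 117 to 206 in control MSC, 71.0 to 212 in IUA and 25.7 to 44.9 in Sham libraries, a sum chosen after seeing the data. The share of these cell types in each library was not measured, and in bulk RNA fewer cells of a type and less RNA per cell cannot be told apart. The part of these markers in the changes against Sham was not tested.

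Across the 4 groups, 7 of the 8 members passed limma's moderated F test, all but Tnf (adjusted p = 0.117), at a background of 67.0% of tested genes. Against Sham, 7 of 8 members rose in IUA libraries, where 11.1% of tested genes were called higher, and Il12b was the exception. Il12a is among the 7, though it was listed at 0 in all Sham libraries and passed the filter only through other groups. Against IUA, Il23a fell and Ebi3 rose in primed MSC and in control MSC libraries, and Il6 fell in primed MSC libraries. The percentages for these comparisons were 6.97% lower and 12.2% higher for primed MSC, and 0.129% lower and 0.724% higher for control MSC. Both comparisons use the same 3 IUA libraries.

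**Figure D1:**
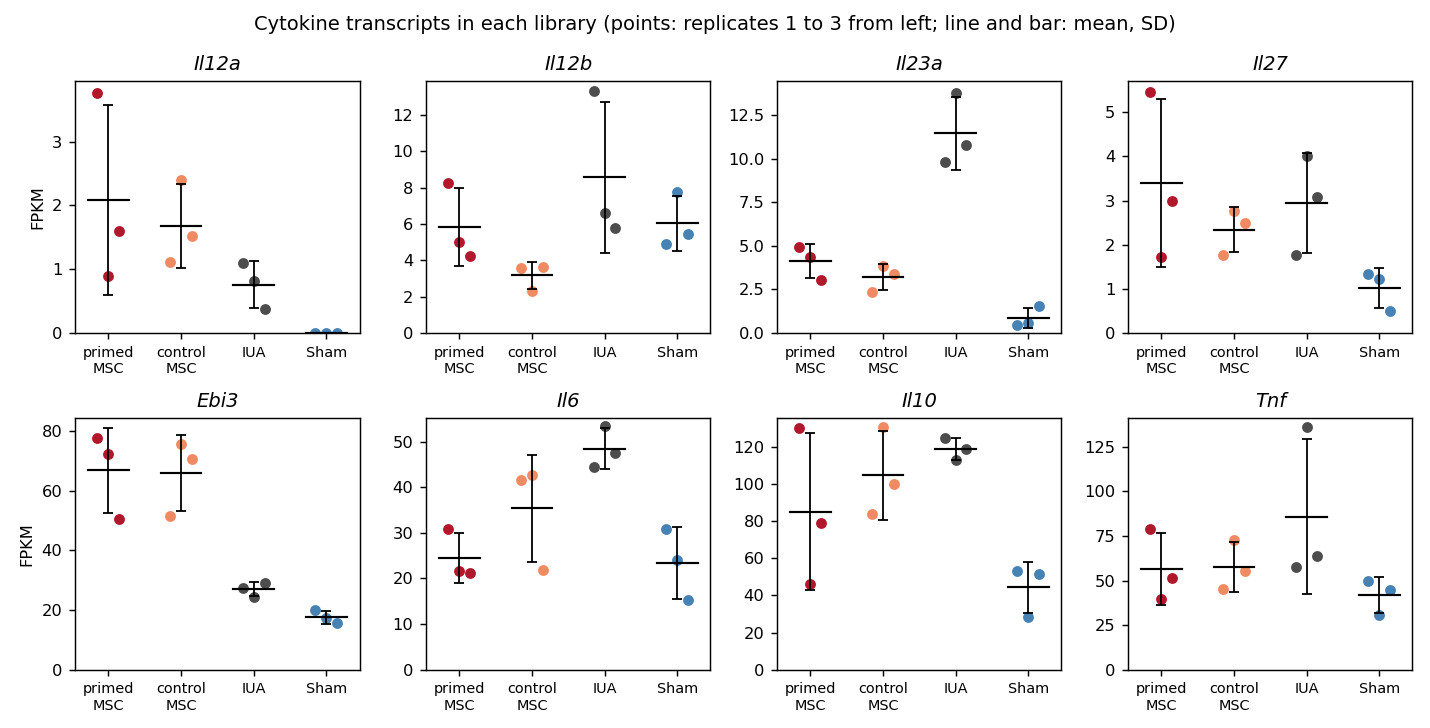
FPKM of the 8 members in each of the 12 libraries (points, each panel with a linear axis of its own) with the mean (line) and SD (bar) of each group, primed MSC, control MSC, IUA and Sham from left to right. The 3 IUA libraries lie above all others for Il23a, and the 6 MSC libraries lie above the other 6 for Ebi3.

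Il23a (mm10, chr10:128296139-128298752, reverse strand), the p19 chain that makes IL-23 with p40, showed the largest log2 change of the 8 members in IUA against Sham. Its FPKM was 4.94, 4.34 and 3.03 in primed MSC libraries, 2.37, 3.83 and 3.36 in control MSC libraries, 9.80, 13.77 and 10.76 in IUA libraries and 0.470, 0.590 and 1.54 in Sham libraries. The IUA libraries stood above every other library and the Sham libraries below every other, and the primed and control MSC libraries overlapped between them. In IUA against Sham the log2 change was 2.77 ± 0.23 (SE, adjusted p = 8.65e-06). Against IUA it was -1.29 ± 0.23 in primed MSC (adjusted p = 0.00425) and -1.57 ± 0.23 in control MSC (adjusted p = 0.0153). Against Sham, Il23a still rose by 1.48 in primed MSC (adjusted p = 2.50e-04) and by 1.19 in control MSC (adjusted p = 0.00110). Its mean level lay at the 38.0th percentile of tested genes in primed MSC, the 32.2nd in control MSC, the 62.4th in IUA and the 4.2nd in Sham libraries. The call for control MSC against IUA was lost without control MSC replicate 2 or 3, where its highest adjusted p was 0.0677.

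Il12b (mm10, chr11:44400063-44414033, forward strand), the p40 chain shared by IL-12 and IL-23, was the member that did not pass in IUA against Sham. It was at 8.27, 5.02 and 4.24 FPKM in primed MSC libraries, 3.58, 2.34 and 3.63 in control MSC, 13.33, 6.62 and 5.77 in IUA and 4.89, 7.75 and 5.47 in Sham. IUA and Sham libraries overlapped, and the control MSC libraries were below all 9 others. The log2 change in IUA against Sham was 0.38 ± 0.29 (adjusted p = 0.282). In control MSC against IUA the change of -1.13 ± 0.29 missed the threshold (adjusted p = 0.0849), and in control MSC against Sham Il12b fell by 0.75 ± 0.29 (adjusted p = 0.0458), where 42.7% of tested genes were called lower. That call was lost in 8 of 22 alternative settings, with an adjusted p of up to 0.255 under median-ratio scaling. Its value in primed MSC against IUA was -0.45 (adjusted p = 0.301).

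Dendritic cells are a known source of p40, and their markers were counted as well. The summed FPKM of 10 conventional dendritic cell markers was 26.4 to 30.6 in primed MSC, 25.8 to 34.9 in control MSC, 45.0 to 48.1 in IUA and 95.9 to 101.5 in Sham libraries, and none was at 0 throughout a group. Of the 6 tested, 3 fell and 1 rose in IUA against Sham, where 45.0% of all tested genes were called lower and 11.1% higher. Their median log2 change was -0.32 against -0.35 for all tested genes. In primed MSC against IUA 1 fell, where 6.97% were called lower. Markers of mature dendritic cells summed to 1164 to 1245, 900 to 1123, 1509 to 1762 and 861 to 1039 in the same order. Most of that sum is Cd83, which macrophages also express and which fell by 0.53 in primed MSC and by 0.78 in control MSC against IUA. Both calls were lost without IUA replicate 3 (adjusted p = 0.0569 and 0.0662). Of 9 mature markers tested, 3 rose, Cd83 among them, and 4 fell in IUA against Sham. The median log2 change of the 9 was -0.56 against -0.35 for all tested genes. The part of these cells in the levels of Il12b and Il23a was not tested.

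Il12a (mm10, chr3:68690644-68698547, forward strand), the p35 chain of IL-12 and IL-35, was the lowest member. It was at 3.76, 0.890 and 1.60 FPKM in primed MSC libraries, 1.11, 2.40 and 1.52 in control MSC libraries and 1.10, 0.810 and 0.370 in IUA libraries, and was listed at 0 in all 3 Sham libraries. Only 6 of the 12 libraries reached 1 FPKM, and no Sham library did. Il12a thus passed the filter only through the groups set against Sham, so its tests against Sham are not independent of the filter. No fold is given in the text against a group listed at 0. In limma the adjusted p against Sham was 9.36e-04 for primed MSC, 0.00178 for control MSC and 0.0366 for IUA. The call for IUA was lost without the filter, without any 1 of the Sham libraries and without IUA replicate 1 or 2. The log2 change in primed MSC against IUA was 0.72 ± 0.29 (adjusted p = 0.104), with overlapping libraries, and in control MSC against IUA 0.60 (adjusted p = 0.299).

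Because the chains pair, the ratio of their FPKM in a library was also taken. The ratio of Il12b to Il23a was 1.16 to 1.67 in primed MSC, 0.611 to 1.51 in control MSC, 0.481 to 1.36 in IUA and 3.55 to 13.1 in Sham libraries. The Sham libraries, with several times more p40 than p19 transcript, did not overlap with any other group. Il12b stood at 2.20 to 5.64 times Il12a in primed MSC, 0.975 to 3.23 times in control MSC and 8.17 to 15.6 times in IUA libraries, and the ratio could not be formed in Sham libraries. All 3 IUA libraries were above the 6 MSC libraries in this second ratio. The divisors were low, with Il23a at 0.47 to 1.54 FPKM in Sham libraries and Il12a at 0.37 to 3.76 FPKM in the others. No constant was added, so small shifts of these values move the ratios much. How often other pairs of genes separate the groups in this way was not counted. With 3 libraries a side, 0.1 is the smallest two-sided p of an exact permutation test, so these ratios are given without a test.

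Ebi3 (mm10, chr17:55952640-55957022, forward strand), the chain shared by IL-27 and IL-35, was higher with either cell treatment than without. It was at 77.54, 72.38 and 50.48 FPKM in primed MSC libraries, 51.47, 75.79 and 70.64 in control MSC, 27.52, 24.42 and 29.04 in IUA and 19.92, 17.30 and 15.53 in Sham. No IUA library overlapped with a Sham library, and all 6 MSC libraries were above all 6 others. Ebi3 rose in primed MSC against IUA by 1.26 ± 0.18 (adjusted p = 0.00132), in control MSC against IUA by 1.24 ± 0.18 (adjusted p = 0.0143) and in IUA against Sham by 0.59 ± 0.18 (adjusted p = 0.0139). Against Sham the change was 1.85 in primed MSC (adjusted p = 1.20e-05) and 1.84 in control MSC (adjusted p = 1.54e-05). The call for control MSC against IUA was lost without control MSC replicate 2 or 3 (highest adjusted p 0.0740) and that for IUA against Sham without Sham replicate 3 (adjusted p 0.0538). Over 2252 bases Ebi3 overlaps Gm16712, an antisense gene on the other strand, and whether reads were assigned by strand is not given in the sources used here, so the reads of this pair cannot be told apart. Beside this rise, 4 of 10 macrophage markers rose in primed MSC and 1 of 10 in control MSC against IUA.

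Il27 (mm10, chr7:126589010-126594941, reverse strand), the p28 chain that completes IL-27, stayed low. It was at 5.46, 1.73 and 2.99 FPKM in primed MSC libraries, 1.77, 2.77 and 2.49 in control MSC, 1.76, 4.01 and 3.07 in IUA and 1.33, 1.23 and 0.510 in Sham. The primed MSC, control MSC and IUA libraries overlapped, all above the Sham libraries. Il27 rose by 0.95 ± 0.31 in IUA against Sham (adjusted p = 0.0202), a call lost without Sham replicate 3 or IUA replicate 2 or 3, and by 1.06 in primed MSC against Sham (adjusted p = 0.0107), a call lost without primed MSC replicate 1. Against IUA the changes were 0.11 in primed MSC (adjusted p = 0.830) and -0.21 in control MSC (adjusted p = 0.758). In each library Ebi3 exceeded Il27, by 14.2 to 41.8 times in primed MSC, 27.4 to 29.1 times in control MSC, 6.09 to 15.6 times in IUA and 14.1 to 30.5 times in Sham libraries. Il27 overlaps Apobr, a gene on the other strand, by 103 bases, and Apobr was at 1.5 to 3.34, 2.21 to 3.71, 1.80 to 2.24 and 0.860 to 1.10 FPKM in primed MSC, control MSC, IUA and Sham libraries.

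**Figure D2:**
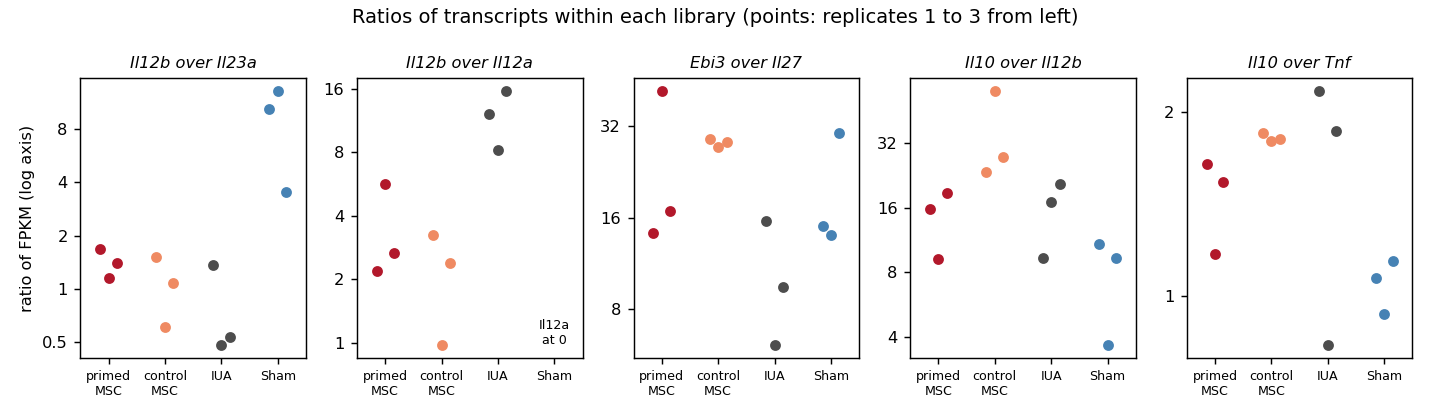
Ratios of FPKM between members in each library (points, vertical axis on a log scale), with the 4 groups from primed MSC on the left to Sham on the right. The ratio of Il12b to Il23a is 3.55 or more in the Sham libraries and 1.67 or less in all others. In the Sham libraries its divisor, Il23a, was at only 0.47 to 1.54 FPKM.

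Il6 (mm10, chr5:30013114-30019981, forward strand), the acute-phase cytokine, was at 30.88, 21.60 and 21.19 FPKM in primed MSC libraries, 41.51, 42.71 and 21.77 in control MSC, 44.46, 53.31 and 47.54 in IUA and 30.86, 23.96 and 15.32 in Sham. The IUA libraries were above all 9 others, and the primed MSC and Sham libraries overlapped. It rose by 1.07 ± 0.27 in IUA against Sham (adjusted p = 0.00589) and fell by 0.97 ± 0.27 in primed MSC against IUA (adjusted p = 0.0291). In control MSC against IUA the change was -0.50 ± 0.27 (adjusted p = 0.347). The difference between both treatments was tested directly: in primed MSC against control MSC it was -0.47, with a 95% interval of -1.06 to 0.13 (adjusted p = 0.516). Against Sham, Il6 in primed MSC was at a change of 0.10 (adjusted p = 0.768).

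The fall of Il6 in primed MSC against IUA was close to the threshold. It was lost in 6 of 22 alternative settings, among them no filter, the correction for the GC content of transcripts (-0.77, adjusted p = 0.083) and leaving out IUA replicate 2 or 3 or primed MSC replicate 2 or 3, with an adjusted p of up to 0.0907. Il6 has the transcript of lowest GC content among the members, 39.3% against a median of 49.4% over tested genes. In IUA replicate 3 the values leaned toward genes of low GC, with a Spearman correlation across genes of -0.485 between GC content and the deviation from the mean of all libraries. This correlation was 0.146 to 0.220 in primed MSC, -0.0916 to 0.0868 in control MSC, -0.150 and -0.183 in the other IUA and 0.0631 to 0.0875 in Sham libraries. Il6 itself was at 47.54 FPKM in IUA replicate 3, between the 44.46 and 53.31 of the other IUA libraries. The part of GC content in the level of Il6 was not tested. Stromal cells of the endometrium also make IL-6. Their 12 markers summed to 130 to 252 FPKM in primed MSC, 156 to 281 in control MSC, 315 to 928 in IUA and 549 to 987 in Sham libraries, and 2 of 11 tested fell in primed MSC against IUA. The part of stroma in the level of Il6 was not tested.

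Il10 (mm10, chr1:131019845-131024974, forward strand), which restrains macrophage activation, was the member with the highest mean FPKM in the primed MSC, control MSC, IUA and Sham groups alike. It was at 129.76, 46.23 and 79.15 FPKM in primed MSC libraries, 83.49, 130.38 and 99.71 in control MSC, 124.66, 112.80 and 118.76 in IUA and 53.13, 28.48 and 51.25 in Sham. The IUA libraries were close together, and 1 primed MSC library lay within the Sham range. Il10 rose by 1.45 ± 0.32 in IUA against Sham (adjusted p = 0.00255) and by 1.25 in control MSC against Sham (adjusted p = 0.00574). Il10 also rose in primed MSC against Sham, by 0.86 (adjusted p = 0.0361), a call lost in 5 of 22 alternative settings (adjusted p up to 0.170). Against IUA the changes of -0.60 ± 0.32 in primed MSC (adjusted p = 0.208) and -0.21 in control MSC (adjusted p = 0.773) did not pass, so no effect of the cells on Il10 was detectable beyond the spread of these libraries.

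Tnf (mm10, chr17:35199381-35202007, reverse strand), the founding member of the TNF family, was at 78.83, 39.50 and 51.50 FPKM in primed MSC libraries, 45.19, 72.66 and 55.09 in control MSC, 57.53, 135.94 and 63.78 in IUA and 49.71, 30.51 and 44.93 in Sham. IUA replicate 2 was above all other libraries, and the primed MSC libraries overlapped with both IUA and Sham libraries. The rise of 0.94 ± 0.33 in IUA against Sham (adjusted p = 0.0288) was lost without IUA replicate 2, without Sham replicate 2 and without the filter, with an adjusted p of up to 0.119. Against IUA the change was -0.54 ± 0.33 in primed MSC (adjusted p = 0.269) and -0.48 ± 0.33 in control MSC (adjusted p = 0.458). The ratio of Il10 to Tnf was 1.17 to 1.65 in primed MSC, 1.79 to 1.85 in control MSC, 0.830 to 2.17 in IUA and 0.933 to 1.14 in Sham libraries. All 6 MSC libraries were above the 3 Sham libraries in this ratio, and the IUA libraries spanned them all.

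**Figure D3:**
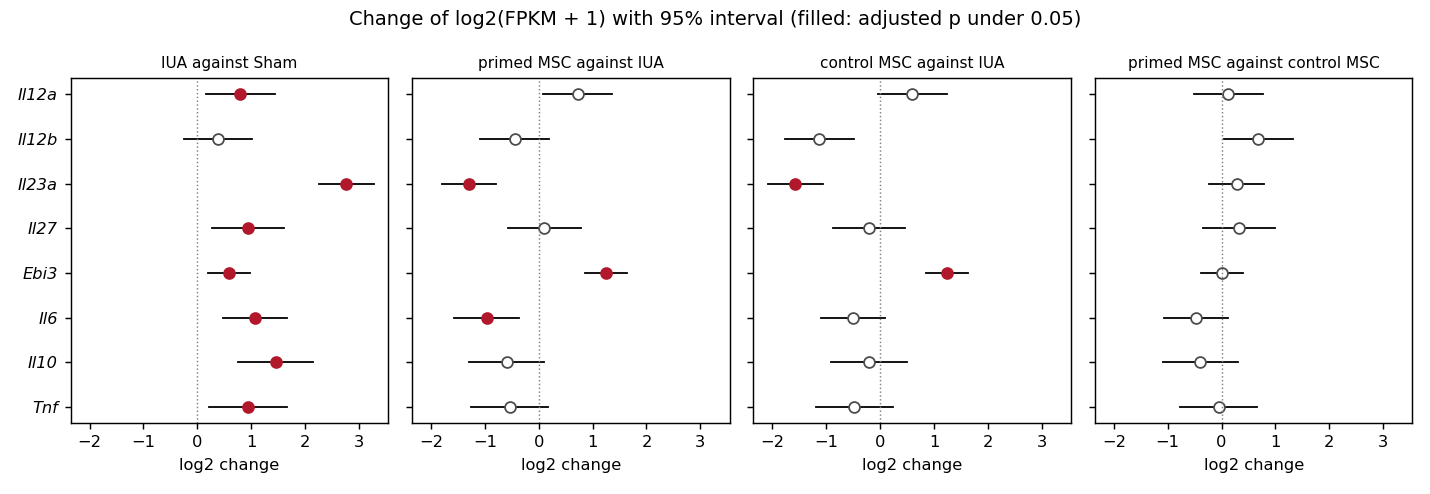
Log2 change of each member (points, filled where adjusted p was under 0.05) with its 95% interval from limma (lines) for IUA against Sham, primed MSC against IUA, control MSC against IUA and primed MSC against control MSC. Ebi3 lies right of 0 in the first 3 comparisons, Il23a lies right of 0 in IUA against Sham and left of it in both treatment comparisons, and the interval of every member but Il12b spans 0 in primed MSC against control MSC. Il12a was listed at 0 in all Sham libraries, so the size of its change in IUA against Sham depends on the constant added before the log.

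Priming of the cells was compared with control cells directly. By limma 0 of 8 members passed in primed MSC against control MSC, where 0.112% of tested genes were called in either direction, and 1 member was below an unadjusted p of 0.05. That member was Il12b, with a change of 0.68 and a 95% interval of 0.04 to 1.32 (unadjusted p = 0.0380, adjusted p = 0.360). All 3 primed MSC libraries had more Il12b than the 3 control MSC libraries. For Ebi3 the change was 0.01 with an interval of -0.38 to 0.40, and for Il23a 0.28 with an interval of -0.23 to 0.79. The intervals of Il10 (-1.09 to 0.31) and Tnf (-0.77 to 0.66) were wider. A p that misses the threshold does not show that the treatments act alike.

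Both treated groups were also set against Sham. Of 8 members 4 rose in control MSC, where 14.1% of tested genes were called higher, namely Il12a, Il23a, Ebi3 and Il10, and Il12b fell. In primed MSC the same 4 and Il27 rose, where 14.5% were called higher. Il12a counts in both, though it passed the filter only through groups other than Sham. Il27 in control MSC against Sham was at 0.74 (adjusted p = 0.0572), which passed in 8 of 21 alternative settings, and its difference in primed MSC against control MSC did not pass (adjusted p = 0.715). Il6 and Tnf passed in neither comparison. For Il6 in control MSC against Sham the change of 0.57 (adjusted p = 0.0943) passed in 4 of 22 alternative settings, among them median-ratio scaling (0.93, adjusted p = 0.0127). These comparisons and that of IUA share the 3 Sham libraries. Among primed MSC libraries the highest value of each of the 8 members was in replicate 1. Without that library 3 of 8 members rose in primed MSC against Sham. Neutrophil markers also summed highest in replicate 1 (1404, 360 and 859 in replicates 1 to 3, and 238, 120 and 116 without Ltf). Mast cell and basophil markers did so as well (76.08, 52.9 and 45.55). The epithelium list, which also holds Ltf, did so with Ltf (3500, 1769 and 3086) but not without it (2333, 1529 and 2342). The other cell type marker lists summed highest in replicate 2 or 3. The share of all tested genes that were highest in replicate 1 was not counted. The part of any cell type in these values was not tested.

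Receptors of the same cytokines were mixed. Of 7 tested chains of IL-12 and IL-6 family receptors (of 9 listed), 0 rose and 3 fell in IUA against Sham, where 45.0% of all tested genes were called lower. Falls in the other lists in this comparison are to be read against the same share, and rises against the 11.1% called higher. In primed MSC against IUA the shares of all tested genes called were 12.2% higher and 6.97% lower. In control MSC against IUA they were 0.724% and 0.129%. Il6st, the gp130 chain through which IL-6 and IL-27 signal, averaged 35.8 FPKM in IUA and 118 in Sham libraries (log2 change -1.75 ± 0.20, adjusted p = 8.39e-05) and was at 36.6 in primed MSC and 32.0 in control MSC. Il6ra, the IL-6 binding chain, fell by 0.42 in IUA against Sham and rose by 0.48 in primed MSC against IUA (adjusted p = 0.0210), a call lost without IUA replicate 3. Osmr, the oncostatin M receptor, fell by 0.95 in IUA against Sham, and Il12rb2, which binds IL-12, was at 1.39 FPKM in IUA and 1.52 in Sham libraries. With median-ratio scaling the same list counted 2 higher and 1 lower, and Il6ra (-0.05) and Osmr (-0.56) no longer passed. Counts of the other lists under that scaling in IUA against Sham are to be read against 2656 genes higher and 2572 lower of 11604. Il12rb1 and Il23r were too low to test.

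Receptors of IL-10 and TNF and the enzymes that shed TNF numbered 7, all tested. In IUA against Sham 2 rose and 3 fell (4 and 3 with the GC correction or without IUA replicate 3, 4 and 2 with median-ratio scaling), and in primed MSC against IUA 4 rose and 0 fell. Il10rb, the shared chain of the IL-10 receptor, rose by 0.95 ± 0.12 and Adam17, the protease that releases TNF from the membrane, by 0.87 ± 0.08 in IUA against Sham. Il10ra, the IL-10 binding chain, averaged 19.6 FPKM in primed MSC and 10.4 in IUA libraries (0.88 ± 0.16, adjusted p = 0.00447). Tnfrsf1a, the main TNF receptor, rose by 0.71 in primed MSC against IUA and fell by 0.91 in IUA against Sham.

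Downstream, 13 genes of JAK-STAT signalling and its inhibitors counted 4 higher and 5 lower in IUA against Sham (5 and 2 with median-ratio scaling, 2 and 5 with the GC correction), and 6 higher and 0 lower in primed MSC against IUA. By the same test 1 rose in control MSC against IUA. Ptpn6, the phosphatase SHP-1, rose by 1.14 in IUA against Sham, by 1.04 in primed MSC against IUA and by 0.95 in control MSC against IUA. Stat4, which carries the IL-12 signal, rose by 0.79 in primed MSC against IUA and by 0.37 in IUA against Sham, the second of which was lost with the GC correction and without IUA replicate 3. Socs2, an inhibitor of cytokine receptors, fell by 1.08 in IUA against Sham.

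Transcription factors known at cytokine promoters counted 4 higher and 9 lower of 28 in IUA against Sham, a smaller share of falls than the 45.0% of all tested genes. Median-ratio scaling turned that to 15 higher and 4 lower, and leaving out IUA replicate 3 to 7 and 7. Under median-ratio scaling 2656 of the 11604 tested genes were called higher and 2572 lower. By comparison, 12 rose and 0 fell in primed MSC against IUA, which became 8 and 0 with the GC correction and 9 and 0 without IUA replicate 3. Fos, a component of AP-1, rose by 0.75 ± 0.10 in primed MSC and by 0.51 in control MSC against IUA, the second of which was lost without IUA replicate 3 and with median-ratio scaling, while in IUA against Sham its change was -0.01 (adjusted p = 0.935), and 0.40 with median-ratio scaling, which passed (adjusted p = 0.0140). Irf5, a factor of Il12b and Il23a transcription, averaged 109 FPKM in primed MSC and 53.6 in IUA libraries (1.06 ± 0.18, adjusted p = 0.00339). Hif1a rose by 0.49 in primed MSC against IUA, and Rel, the NF-kB subunit c-Rel, by 0.59 in IUA against Sham. Among 22 genes of Toll-like receptor signalling 5 rose and 5 fell in IUA against Sham (12 and 1 with median-ratio scaling). In primed MSC against IUA 4 rose and 2 fell, where 12.2% of all tested genes were called higher and 6.97% lower. The 4 and 2 became 5 and 0 with the GC correction, 4 and 0 without IUA replicate 3 and 4 and 1 with median-ratio scaling. Irak3, which dampens this pathway, rose in all 3 of the comparisons, by 1.28 in IUA against Sham, 1.07 in primed MSC against IUA and 0.95 in control MSC against IUA. Cd14, the co-receptor of endotoxin, averaged 7572 FPKM in IUA and 3122 in Sham libraries. Tlr7 rose by 1.02 and Tlr2 by 0.50 in IUA against Sham.

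Proteins that act on the ATTTA elements and other decay signals of these transcripts numbered 15, of which 1 rose and 6 fell in IUA against Sham (1 and 1 with median-ratio scaling, 2 and 3 without IUA replicate 3), near the 45.0% called lower among all tested genes. In primed MSC against IUA 4 rose and 1 fell, and 2 and 0 without IUA replicate 3. The 1 fall was lost under all 3 of the GC correction, median-ratio scaling and leaving out IUA replicate 3. Arid5a, which stabilises Il6 transcripts, fell by 1.48 ± 0.18 in IUA against Sham and rose by 0.60 in primed MSC against IUA, a call lost with the GC correction and without IUA replicate 3. Zc3h12a, the nuclease Regnase-1 that degrades Il6 and Il12b transcripts, averaged 13.7 FPKM in primed MSC and 6.53 in IUA libraries (1.05 ± 0.27, adjusted p = 0.0186). Zc3h12c, its relative, rose by 0.80 in IUA against Sham, and Elavl1, the protein HuR, fell by 0.49, a call lost with median-ratio scaling (-0.09).

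Response genes were counted last. Of 20 genes that TNF is known to induce 11 rose and 1 fell in IUA against Sham, with a median log2 change of 0.41 against -0.35 for all tested genes, and 12 and 0 did so with median-ratio scaling. In primed MSC against IUA 2 rose and 0 fell (1 and 0 without IUA replicate 3), near the 12.2% called higher among all tested genes. In control MSC against IUA 0 passed. Tnip3, an inhibitor of NF-kB, rose by 1.43 ± 0.23, Traf1, an adaptor of TNF receptors, by 1.21 ± 0.17, and Tnfaip8l2 by 0.84 in IUA against Sham. Nfkbie, an inhibitor of NF-kB, rose by 0.63 in primed MSC against IUA. Of 15 genes known to respond to IL-10 or STAT3 10 rose and 3 fell in primed MSC against IUA, with a median of 0.82 against -0.03, and 7 and 3 with the GC correction or without IUA replicate 3. In IUA against Sham 3 rose and 5 fell, which became 6 and 4 with median-ratio scaling and 5 and 5 without IUA replicate 3. This list shares genes with those of transcription factors, JAK-STAT signalling, receptors, mRNA decay and macrophage markers, Arid5a and Fcgr1 among them. The counts of these lists are therefore not independent of each other. Fcgr1, the high-affinity IgG receptor, rose by 0.95 in primed MSC against IUA and by 0.91 in IUA against Sham. Pim1, a kinase, fell by 0.95 in primed MSC against IUA and rose by 1.38 in IUA against Sham. Cd163, the haemoglobin scavenger receptor that IL-10 induces, fell by 1.26 in primed MSC against IUA.

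**Figure D4:**
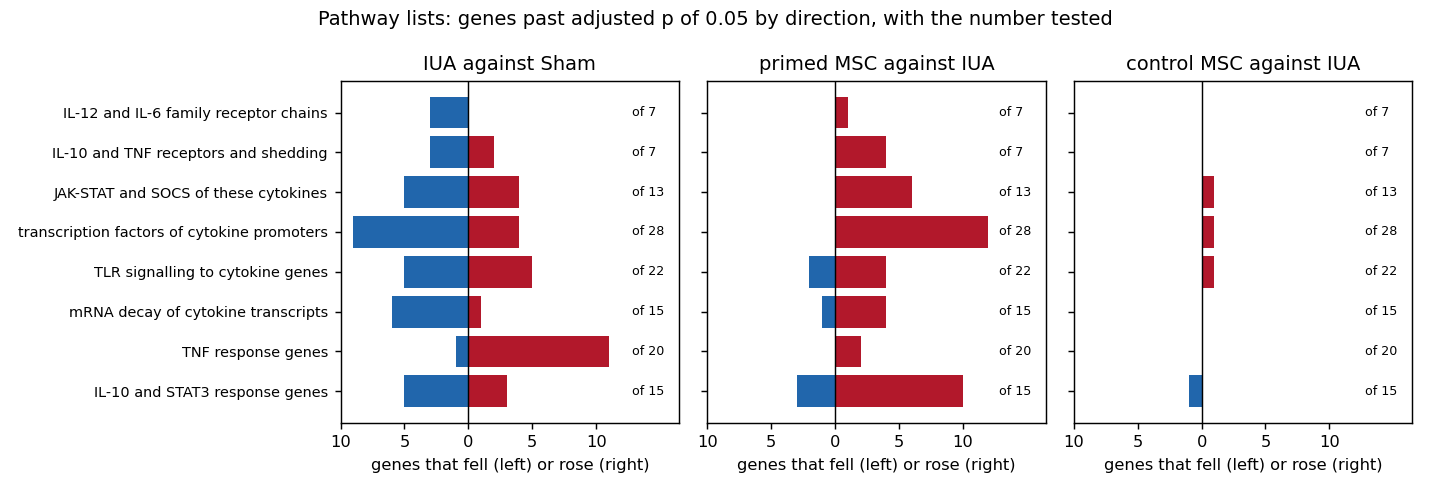
Number of tested members of each pathway list that rose (right of 0) or fell (left of 0) for IUA against Sham, primed MSC against IUA and control MSC against IUA. Most calls in the treatment comparisons are rises in primed MSC, with 12 transcription factors and 10 genes of the IL-10 and STAT3 list. Some genes are on several lists and are counted in each. Of all tested genes 12.2% were called higher in primed MSC against IUA.

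Other ligands of the same families were mostly low. Of 27 listed, 15 were tested, of which 4 rose and 4 fell in IUA against Sham, and 1 rose and 1 fell in primed MSC against IUA. Among all tested genes the shares called higher and lower were 11.1% and 45.0% in the first comparison and 12.2% and 6.97% in the second. Osm, the IL-6 family cytokine oncostatin M, averaged 100.8 FPKM in primed MSC and 56.1 in IUA libraries (0.86 ± 0.17, adjusted p = 0.00631) and rose by 0.98 in IUA against Sham. Tnfsf14, the ligand LIGHT, rose by 1.59 and Tnfsf13, the ligand APRIL, by 1.38 in IUA against Sham, while Ctf1, cardiotrophin, fell by 0.90.

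The genes whose pattern over the 12 libraries was most like each member were found by the root mean square difference of profiles of log2(FPKM + 1), each centred on its own mean. Ebi3 was closest to Adgre1, which encodes F4/80 itself, at 0.230 against a median of 0.966 over all genes. Adgre1 averaged 1175 FPKM in primed MSC, 940 in control MSC, 434 in IUA and 223 in Sham libraries, the same order as Ebi3. Il23a was closest to Il1a, the alarmin interleukin-1 alpha, at 0.386 against a median of 1.17, and next to Tnfsf9, the ligand 4-1BBL, at 0.461. Il1a averaged 288 FPKM in primed MSC, 339 in control MSC, 617 in IUA and 85.4 in Sham libraries. Il10 was closest to the chemokine genes Cxcl2 (0.291) and Ccl3 (0.312), and Il27 to Arg2, an arginase, at 0.278. For Il12b, the nearest gene was H2-Oa, a class II chaperone of antigen-presenting cells, at 0.347 against a median of 0.632. Il12a was nearest to Mxd1 (0.275) and to Tnfrsf1b, a TNF receptor (0.276). Il6 was nearest to Mtmr7 (0.287), and Tnf to Gpr85 (0.276). Group means were only 0.817 to 2.73 FPKM for Mtmr7, 0.973 to 2.44 for Gpr85 and 0.473 to 1.40 for H2-Oa. At such levels adding 1 to FPKM makes changes smaller. Among the members themselves, Il27 and Tnf were the most alike (0.393), followed by Ebi3 and Il12a (0.414) and by Il10 and Tnf (0.430), and Ebi3 was farthest from Il12b (1.16) and Il23a (1.15). These likenesses are descriptions over 12 libraries that share depth and cell composition within a library.

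**Figure D5:**
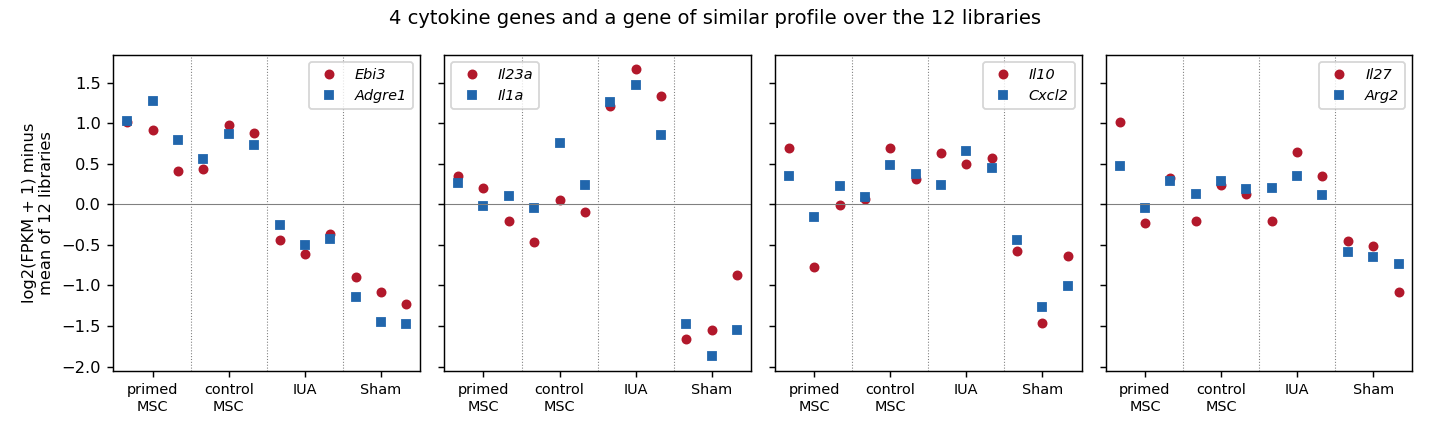
Centred log2(FPKM + 1) in the 12 libraries (points) for 4 members, each with the gene nearest to it, Ebi3 with Adgre1, Il23a with Il1a, Il10 with Cxcl2 and Il27 with Arg2. The profiles of a pair lie 0.230 to 0.386 apart in root mean square difference.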

How the data were processed

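The deposited table gives the authors' FPKM, 1 value per gene and library. The submitters' processing notes name DESeq2, RSEM, StringTie, HISAT2 and fastp with the build mm10, and no version, role or order. Depth is unknown, and no count test or count-based interval was used. FPKM summed to between 505460 and 563751 per library. For 27 genes a symbol that a spreadsheet had turned into a date was looked up by gene identifier. No pair of libraries was identical.

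The scale was log2(FPKM + 1), for the 11604 genes with 1 FPKM or more in at least 3 libraries. R 4.3.3 and limma 3.58.1 fitted a mean for each of the 4 groups to the 12 libraries at once, with an empirical Bayes variance trend and no block, for 6 comparisons and a moderated F test. All p-values are two-sided and adjusted by Benjamini-Hochberg over the 11604 genes. The fit was tested on simulated data. Lists were described by counts and medians without a list test.

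The members and lists were chosen with earlier results of these data known. The text names the 8 members, up to 4 genes of smallest F-test p from each list described, and up to 3 genes most like each member, leaving out predicted, clone and antigen receptor names. Of the genes the rule gives, 1 is not reported here. Cd83, Gm16712 and Apobr were named after their values were seen. Promoters are those of RefSeq GRCm38.p6, and untranslated regions and GC content come from GENCODE vM21.

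Alternatives were pseudocounts of 0.1 and 0.5, no filter, a filter at FPKM 5, rescaling to TPM, median-ratio scaling, a GC correction (lowess, span 0.3), fits restricted to 2 groups, a replicate block, no variance trend and leaving out each library. The alternatives for list counts were chosen after seeing the data.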

Additional observations from a re-analysis of the deposited data

How the results depend on the processing

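Over 22 alternative settings the log2 changes of the members gave 1042 values, of which 974 kept direction and side of the threshold, 37 lost a call, 13 gained one and 18 changed sign. The calls of Il23a, Il6 and Il10 in IUA against Sham and of Il23a and Ebi3 in primed MSC against IUA held in all of these settings. Every change of sign was of a value that had not passed: under median-ratio scaling Il12b was at 0.30 in primed MSC against Sham, and under the GC correction Il27 was at -0.11 in primed MSC against IUA and Ebi3 at -0.10 in primed MSC against control MSC. With 1 library left out, the values ran from -0.30 to 0.11 for Il12b and -0.16 to 0.32 for Il6 in primed MSC against Sham, and from -0.22 to 0.41 for Il27 in primed MSC against IUA. For primed MSC against control MSC they ran from -0.24 to 0.42 for Il12a, -0.15 to 0.20 for Ebi3, -0.32 to 0.17 for Tnf and -0.0066 to 0.61 for Il27.

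Members called in primed MSC against Sham were 5, and 3 with a filter at FPKM 5 or in a fit to the compared groups alone. Leaving out 1 library gave 4 to 7 members in IUA against Sham (4 without Sham replicate 3 or IUA replicate 2), 0 to 2 in control MSC against IUA (0 without control MSC replicate 2 or 3), 2 to 3 in primed MSC against IUA, 0 in primed MSC against control MSC, 4 to 6 in control MSC against Sham, 3 to 5 in primed MSC against Sham and 6 to 7 in the F test.

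Genes called in primed MSC against control MSC were 13, and 4, 5, 0, 5, 25 and 230 with pseudocounts of 0.1 and 0.5, no filter, a filter at FPKM 5, median-ratio scaling and the compared groups alone. In control MSC against IUA they were 99, and 29, 58 and 16 with no filter, median-ratio scaling and the compared groups alone. In primed MSC against IUA 2219 became 1381 with the compared groups alone. Without 1 library these counts ran from 0 to 233, 5 to 329 and 1154 to 2560. The cause was not tested.

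Against Sham, genes called higher and lower were 1684 and 5219 in primed MSC, 1632 and 4960 in control MSC and 1291 and 5226 in IUA, and 3240 and 2913, 3042 and 2803, and 2656 and 2572 with median-ratio scaling.

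No pairing of libraries by replicate number was seen: correlations of same-numbered deviations ran from -0.293 to 0.288, and 5 of 18 were highest with their own number. The labels do not say whether the numbers pair libraries, and these values cannot exclude it. With the number as a replicate block, genes called were 43 in control MSC against IUA and 0 in primed MSC against control MSC, and the call of 1 member changed, Il6 in control MSC against Sham, which passed (0.57, adjusted p = 0.0388). As FPKM carries no counts, the depth behind the low values of Il12a and Il27 is unknown.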
